A study of Arabidopsis thaliana with 48 samples.

Results

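The gene set described here comprises 9 sugar transporter genes of Arabidopsis thaliana, taken by name and locus: 7 genes of the SWEET family and 2 sucrose/proton symporters. They are SWEET2 (AT3G14770), SWEET4 (AT3G28007), SWEET11 (AT3G48740), SWEET12 (AT5G23660, listed as MTN3), SWEET15 (AT5G13170, listed as SAG29), SWEET16 (AT3G16690), SWEET17 (AT4G15920), SUC1 (AT1G71880) and SUC2 (AT1G22710). All 9 were found among the 26988 genes of the deposited table. The rule that picks them uses names and loci, not measured values, but it was set with earlier results of these data known. RNA sequencing was done on 48 libraries from the aerial part of 3-week-old plants of 3 genotypes, wild type Columbia, gi-2 and aba1-6, the last impaired in the synthesis of abscisic acid (ABA). Each genotype was kept either at 80 to 90% relative soil water content (normal watering) or at 30% (drought), a deficit imposed on young seedlings and kept up until harvest. The day had 8 h of light and 16 h of darkness, and material was taken at Zeitgeber time (ZT) 1 and ZT8 of the last short day and at ZT12 and ZT16, when the light was kept on beyond its usual end. Each of the 24 combinations of genotype, watering and time has 2 biological replicates, each a pool of about 50 seedlings from 3 pots. Each mutant is a single allele carried in every cell throughout growth, so an altered development and an altered drought response cannot be told apart. ZT12 and ZT16 differ from ZT1 and ZT8 both in clock time and in day length, which cannot be told apart, and there were no plants left in short days at those times.

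Leaves export most of the carbon they fix as sucrose, and these genes encode proteins on that route. SWEET proteins let sugars pass down their gradient through a membrane, whereas SUC proteins move sucrose against its gradient together with protons. In the leaf vein SWEET11 and SWEET12 release sucrose from phloem parenchyma into the cell wall space, from which SUC2 in companion cells loads it into the phloem. SWEET2, SWEET16 and SWEET17 sit in the vacuole membrane, and SWEET16 and SWEET17 are known for moving fructose. GI (GIGANTEA) is a clock-regulated protein of the photoperiodic flowering pathway, and ABA1 encodes zeaxanthin epoxidase, an enzyme of ABA synthesis.

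Library totals ran from 1920012 to 26925706 counts, with a median of 8778260, and levels are given as CPM, counts normalised to the library total with TMM factors. The GI transcript itself was still detected in gi-2, with a flatter day: at ZT8 it was 134 to 165 CPM in gi-2 against 243 to 315 CPM in wild type, and at ZT16 51.5 to 56.1 CPM against 11.2 to 22.8 CPM (4 libraries each). The drought ZT16 replicate 2 library whose title names gi-2 but whose genotype tag says wild type had 56.1 CPM of GI, next to the 51.5 to 54.3 CPM of the other gi-2 libraries at that time, and it was grouped by its title. ABA1 transcript overlapped between aba1-6 and wild type at ZT8, ZT12 and ZT16. At ZT1 it was lower in aba1-6 without overlap, 559 to 654 CPM against 674 to 983 CPM in wild type. The level of a transcript does not check a mutation that leaves it in place. Leaf mesophyll markers summed to 24222 to 61018 CPM per library, and 4 floral markers to at most 4.35 CPM. Of 5 root markers, EXPA7 and COBL9 were at 0 in 39 and 34 of the 48 libraries. NRT2.1 was at 0 in 1 library (median 5.02 CPM) and CASP1 in 0 (median 1.14 CPM), and PYK10 reached 394 to 1344 CPM.

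The wild-type libraries numbered 1 stood apart from those numbered 2 in several genes of the vein, and in some genes outside it. In all 8 wild-type groups replicate 1 was higher than replicate 2 for SWEET11 (means 134 and 76.9 CPM), SWEET12 (74.7 and 40.8 CPM) and SUC2 (169 and 112 CPM). The 8 measured phloem markers summed to 396 to 674 CPM in the wild-type libraries numbered 1 and to 292 to 498 CPM in those numbered 2, a ratio of 1.11 to 1.93 within groups. In wild type the ratio was 1.11 to 1.34 in the groups with normal watering and 1.40 to 1.93 in those under drought. In gi-2 that ratio was 0.999 to 1.09 and in aba1-6 0.882 to 1.23. AHA3, SEOR1, SEOR2 and PP2-A1 were higher in replicate 1 in 8 of 8 wild-type groups. APL was higher in 7, AKT2 in 6, CALS7 in 5 and NAKR1 in 3 of 8. The offset was not confined to the vein. The mesophyll markers CA1 and RCA were also higher in 8 of 8 (ratio of means 1.26 and 1.28), and RBCS1A and CAB1 in 6 of 8 (1.02 and 1.14). What separates the numbers, such as a date, a tray or the share of vein tissue harvested, is not given by the labels and was not tested. The averaged results on SWEET11, SWEET12 and SUC2 against wild type are given with each number left out. Their averaged SE and p over all libraries treat the times as independent and do not allow for an offset shared over them. With 1 number left out each wild-type group holds 1 library, so for these genes only the size of the value is given. In these bulk samples fewer cells of a type and less RNA per cell cannot be told apart.

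**Figure D1:**
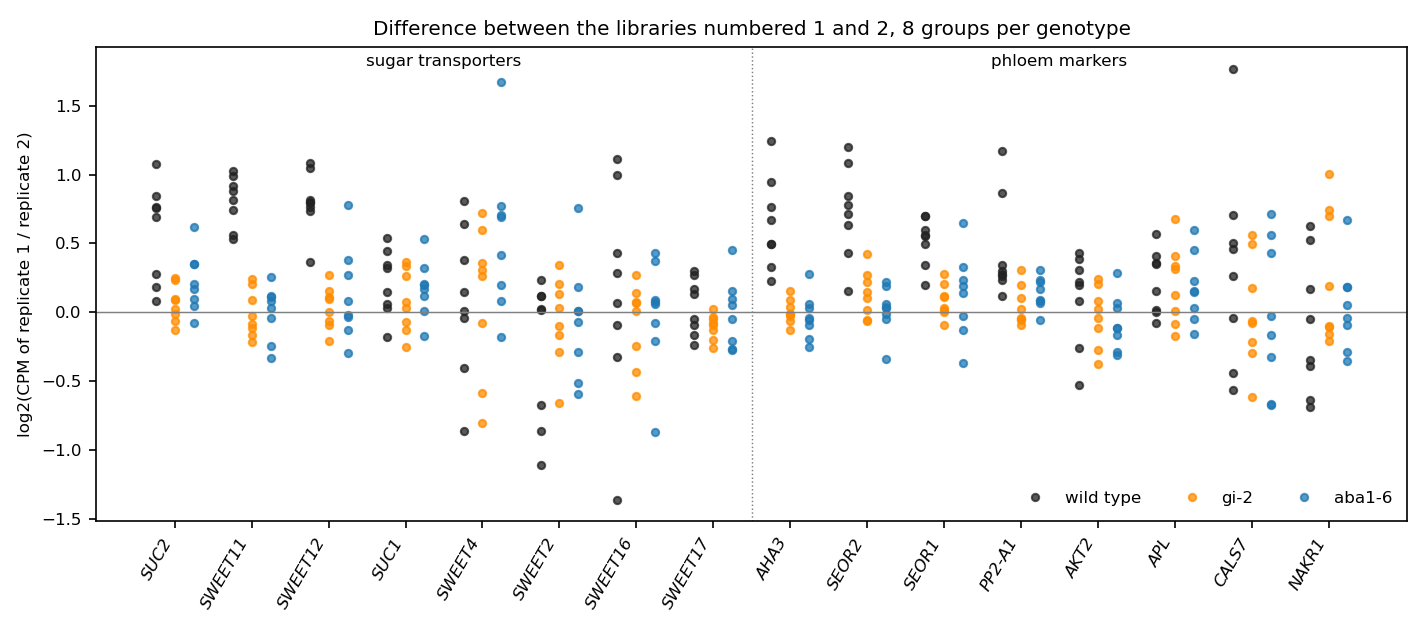
Log2 ratio of CPM in replicate 1 over replicate 2 for 8 of the 9 sugar transporters (SWEET15, near 0, is left out) and 8 phloem markers. Each point is 1 of the 8 groups of a genotype. All 8 wild-type points of SUC2, SWEET11 and SWEET12 lie above 0, as do those of AHA3, SEOR1, SEOR2 and PP2-A1, whereas the gi-2 and aba1-6 points of these genes lie on both sides of 0.

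Of the 250 bases before the annotated start, 4 of the 9 promoters hold the letters ACGTG, the core of ABA response elements with the G that follows it, on either strand. Across the 27443 promoters of this length 22.9% hold it, and 6.5% hold CACGTG, the G-box, each copy of which also holds 2 overlapping ACGTG matches. The 4 promoters are shown because drought and the ABA-deficient mutant are the comparisons below, with these matches in capitals (RefSeq sequence, build TAIR10.1, 5′ to 3′ on the strand of the gene). SWEET4 is at chr3:10409978-10410227 (minus strand), SUC1 at chr1:27053780-27054029 (plus), SUC2 at chr1:8033157-8033406 (minus) and SWEET15 at chr5:4183355-4183604 (minus).
SWEET4: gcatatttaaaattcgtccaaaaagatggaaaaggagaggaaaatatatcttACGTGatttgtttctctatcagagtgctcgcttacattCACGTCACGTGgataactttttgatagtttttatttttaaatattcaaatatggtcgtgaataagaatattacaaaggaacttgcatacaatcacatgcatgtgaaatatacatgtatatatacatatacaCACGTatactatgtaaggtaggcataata
SUC1: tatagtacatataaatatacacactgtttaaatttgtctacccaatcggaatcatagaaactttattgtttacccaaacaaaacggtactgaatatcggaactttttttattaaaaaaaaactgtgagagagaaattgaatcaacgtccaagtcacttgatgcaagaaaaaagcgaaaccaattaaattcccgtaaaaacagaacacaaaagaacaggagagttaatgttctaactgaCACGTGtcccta
SUC2: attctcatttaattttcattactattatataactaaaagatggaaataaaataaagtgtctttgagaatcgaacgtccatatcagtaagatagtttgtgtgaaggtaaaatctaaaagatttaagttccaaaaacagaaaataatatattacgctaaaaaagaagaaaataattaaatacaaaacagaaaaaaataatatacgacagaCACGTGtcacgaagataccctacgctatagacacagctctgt
SWEET15: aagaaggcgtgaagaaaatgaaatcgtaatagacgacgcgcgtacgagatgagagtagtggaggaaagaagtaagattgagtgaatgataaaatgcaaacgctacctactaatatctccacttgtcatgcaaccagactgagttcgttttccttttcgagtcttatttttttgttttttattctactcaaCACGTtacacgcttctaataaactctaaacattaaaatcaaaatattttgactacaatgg
SWEET4 has 5 ACGTG matches, a number reached by 122 of the 27443 promoters (0.44%), with its G-box from position -155 to -150 before the start. SUC1 and SUC2 have a single G-box each, at -12 to -7 and at -42 to -37, and SWEET15 has 1 ACGTG match at -60 to -56. None of the 9 held CCGAC (the core of the dehydration-responsive element, in 12% of promoters) or AAAATATCT (the evening element of clock-regulated genes, in 2.4%) in this window, which says nothing about sites elsewhere. A match is a string of letters, and no binding was measured.

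Per kilobase of transcript, SWEET11 was the most abundant member in normally watered wild-type plants (86.6 ± 25.6 CPM per kb, mean ± SD over 8 libraries of 4 times), ahead of SUC2 (64.2 ± 14.1) and SWEET12 (44.7 ± 31.2). SUC1 (36.3 ± 9.70 CPM per kb), SWEET17 (33.3 ± 13.0) and SWEET2 (18.0 ± 12.3) followed. SWEET16 (6.91 ± 3.48 CPM per kb) and SWEET4 (5.05 ± 1.54) were low, and SWEET15 was near the detection limit (0.467 ± 0.539). Neighbours in this order overlapped in range except SWEET4 and SWEET15. In drought-grown wild type SUC2 (73.0 ± 24.8 CPM per kb) came before SWEET11 (65.6 ± 25.2), and SWEET4 (13.6 ± 5.69) stood above SWEET2 (11.4 ± 9.48) and SWEET16 (3.74 ± 1.78), with overlapping ranges.

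**Figure D2:**
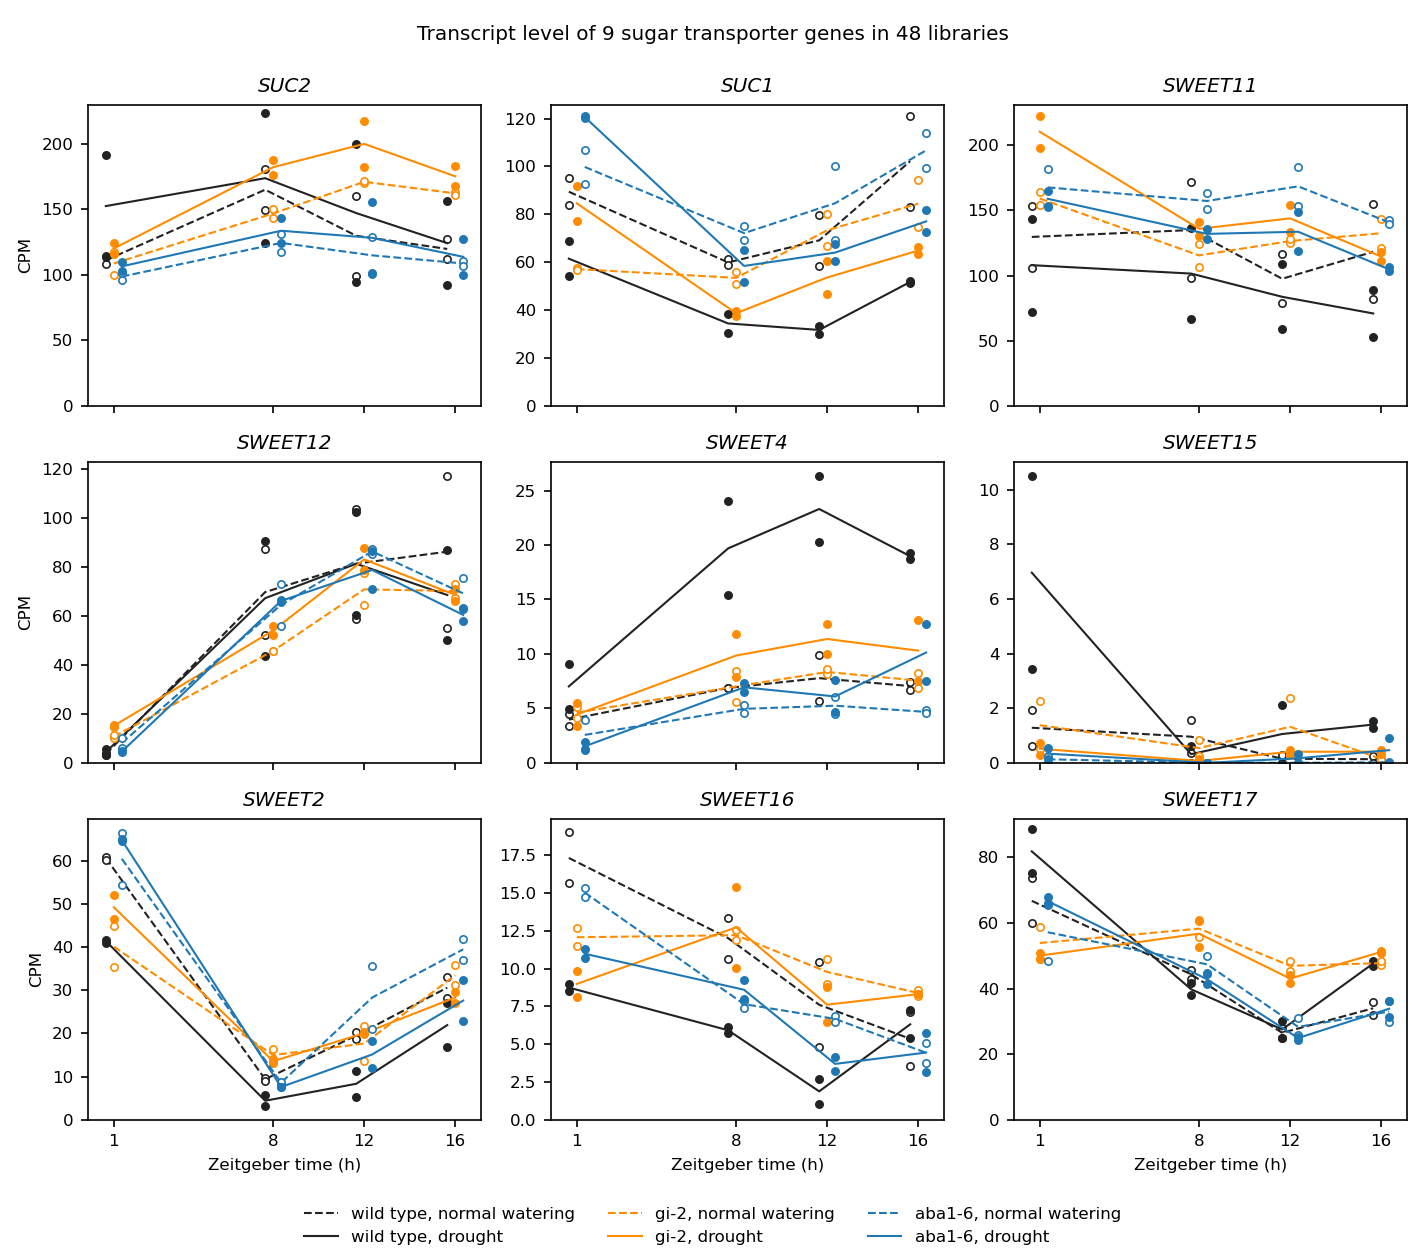
CPM of each gene against Zeitgeber time in hours. Points are single libraries (2 per group, shifted sideways by genotype), open for normal watering and filled for drought, and lines join group means. SWEET4 in drought-grown wild type lies above all other groups from ZT8 on, and the gi-2 lines of SWEET16 and SWEET17 are flatter than those of the other genotypes.

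In drought-grown wild type SUC1, SWEET2 and SWEET16 were lower and SWEET4 was higher than with normal watering. These 4 of 9 members passed an edgeR adjusted p under 0.05 for the mean log2 ratio over the 4 times, against 23.0% of the 19037 genes tested. Of the 9, 1 was higher and 3 were lower, against 10.2% and 12.7% of all genes. SWEET11 did not pass in this fit (log2 ratio -0.38, adjusted p = 0.124). With a block for the replicate numbers in the edgeR fit it passed as lower (-0.44, adjusted p = 5.32e-08). In gi-2 0 of 9 members passed with edgeR (5.17% of all genes) and 0 with DESeq2, and 1, SUC1, had an unadjusted p under 0.05. When only the gi-2 libraries entered the fit, SUC1, SUC2, SWEET11 and SWEET12 passed in gi-2, at log2 ratios of -0.18, 0.20, 0.15 and 0.24 (adjusted p = 0.0488, 0.00308, 0.0332 and 0.00653), whereas SWEET2, SWEET4 and SWEET16 still did not. In aba1-6 1 of 9 passed, SWEET2 (9.32% of all genes). The median log2 ratio over the 9 members was 0.03 in wild type and 0.02 in gi-2, against 0.01 and -0.00 over all genes tested. The test of the difference itself passed for 3 members between gi-2 and wild type, SUC1, SWEET2 and SWEET4 (6.96% of all genes), and for 2 between aba1-6 and wild type, SUC1 and SWEET4 (2.74%). Some of these differences did not hold when the wild-type libraries of 1 number were left out: SWEET2 in gi-2 without those numbered 1 (adjusted p = 0.101), and SWEET4 in gi-2 and in aba1-6 without those numbered 2 (adjusted p = 0.0585 and 0.0826).

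With normal watering, 1 of 9 passed for gi-2 against wild type, SWEET17 (12.7% of all genes), and 2 for aba1-6 against wild type, SWEET4 and SWEET15 (17.0%). In drought, 6 of 9 passed for gi-2 against wild type (28.7%), with SUC1, SWEET2, SWEET11 and SWEET16 higher (4 of 9, 15.3% of all genes) and SWEET4 and SWEET15 lower (2 of 9, 13.3%). For aba1-6 against wild type in drought 6 of 9 also passed (22.6%), with SUC1, SWEET2 and SWEET11 higher (3 of 9, 11.4%) and SWEET4, SWEET15 and SWEET17 lower (3 of 9, 11.3%). Both mutants are set against the same wild-type libraries, so the shared directions of SUC1, SWEET2, SWEET4, SWEET11 and SWEET15 are not independent. The median log2 ratio over the members was 0.17 for gi-2 with normal watering and 0.36 in drought, against 0.01 and -0.01 over all genes.

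**Figure D3:**
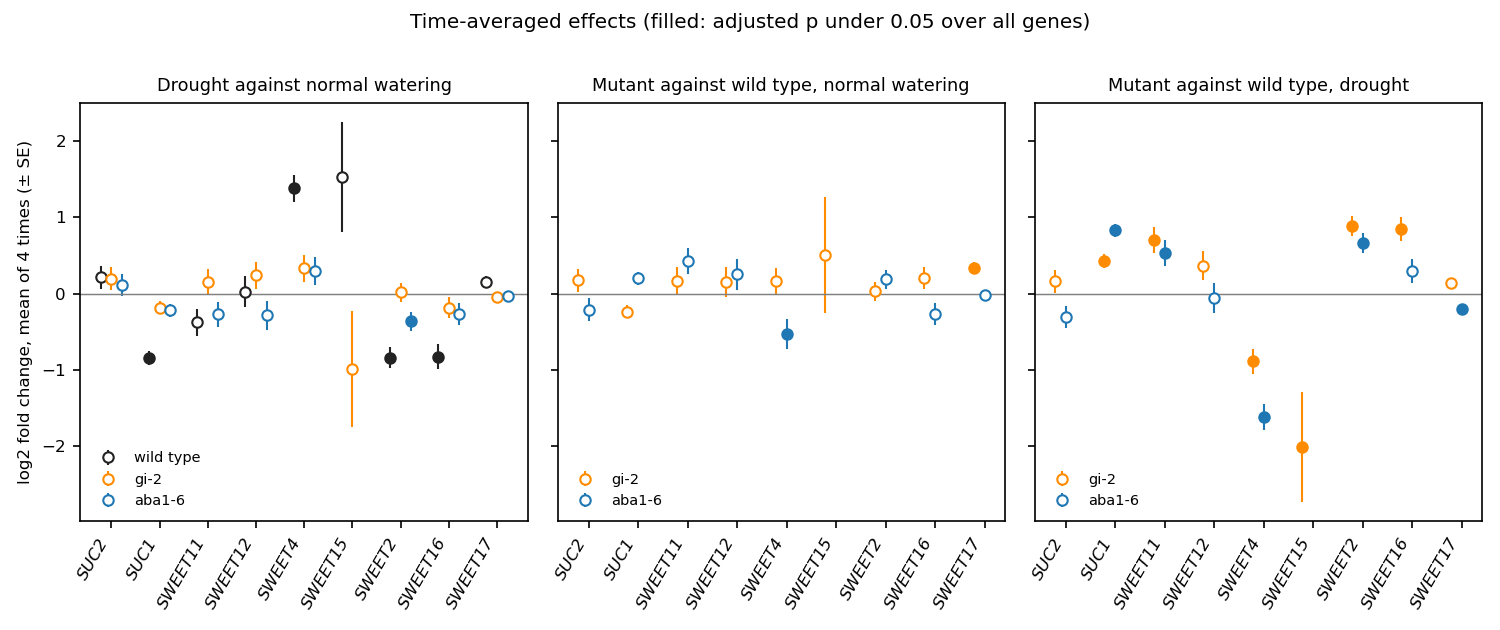
Log2 fold change of each gene averaged over the 4 times, with its standard error. The panels show drought against normal watering within each genotype, and each mutant against wild type under normal watering and under drought. Filled points passed an adjusted p under 0.05, and SWEET15 values that rest on a group of 2 libraries at 0 are left out. The wild-type drought effects of SUC1, SWEET2 and SWEET16 lie near -0.8 and that of SWEET4 at 1.38, while the gi-2 drought effects in that panel are all open.

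At single times the wild-type drought tests passed for 2 of 9 members at ZT1 (6.31% of all genes), 4 at ZT8 (6.53%), 4 at ZT12 (6.12%) and 2 at ZT16 (3.70%). Within the mutants 0 of 9 passed at any time with edgeR. In gi-2 the background was 0.756%, 2.21%, 0.257% and 0.0735% from ZT1 to ZT16, and 1 member at each time, SUC1, had an unadjusted p under 0.05. In aba1-6 it was 1.89%, 1.33%, 0.982% and 1.18%, and 0, 0, 3 and 4 members had an unadjusted p under 0.05. For gi-2 against wild type with normal watering 1, 0, 1 and 1 members passed (1.79%, 1.19%, 4.50% and 5.73% of all genes), with 2 members at an unadjusted p under 0.05 at ZT8. In drought 3, 3, 5 and 0 passed (5.91%, 5.34%, 11.5% and 8.04%), with 1 at an unadjusted p under 0.05 at ZT16. For aba1-6 against wild type 0 passed at any time with normal watering (3.29%, 4.31%, 1.95% and 1.92%), where 1, 2, 1 and 0 had an unadjusted p under 0.05, and 3, 2, 2 and 1 passed in drought (9.82%, 5.08%, 4.75% and 3.78%). The ratio of drought to normal watering differed between the times for 0 of 9 members in wild type (0.819% of all genes, 2 at an unadjusted p under 0.05), for 1 in gi-2 (0.404%) and for 0 in aba1-6 (0.184%, 3 at an unadjusted p under 0.05). Likewise 0 of 9 members had an aba1-6 to wild type ratio that differed between the times, with normal watering (0.205%, 0 at an unadjusted p under 0.05) or in drought (1.33%, 2 at an unadjusted p under 0.05). DESeq2 was run for the averaged contrasts and not at single times.

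SUC1 is a plasma membrane sucrose/proton symporter, known from pollen and roots as well as from leaves. In wild type its level under normal watering was 83.9 and 95 CPM at ZT1, 61.1 and 58.7 CPM at ZT8, 79.7 and 58.5 CPM at ZT12, and 121 and 83.2 CPM at ZT16 (replicates 1 and 2). Under drought it was 68.8 and 54.1 CPM, 38.3 and 30.6 CPM, 33.3 and 30.1 CPM, and 52.3 and 51.2 CPM at the same times. Both drought libraries lay below both normal libraries at 4 of 4 times, and SUC1 fell by 0.85 on the log2 scale (SE 0.09, edgeR adjusted p = 1.31e-09). At single times the fall passed at all 4, from -0.55 at ZT1 (adjusted p = 0.0423) to -1.07 at ZT12 (adjusted p = 0.000168). The ZT12 call held without any single library, and the others did not: at ZT1 the call was lost without wild type normal replicate 1 or 2 or drought replicate 2, at ZT8 without drought replicate 2, and at ZT16 without normal replicate 1.

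In gi-2 the drought value of SUC1 was -0.19 (SE 0.09, adjusted p = 0.239), and the drought effect was 0.66 higher than in wild type (SE 0.12, adjusted p = 0.000394). Levels were 51.0 to 94.3 CPM with normal watering (median 62.2) and 37.7 to 92.0 CPM in drought (median 61.8). At ZT1 the gi-2 libraries had more SUC1 in drought (77.2 and 92.0 CPM) than with normal watering (57.7 and 56.6 CPM), whereas at ZT8, ZT12 and ZT16 both drought libraries lay below both normal ones. The drought ratio in gi-2 differed between the times (adjusted p = 0.0399), a call lost without any 1 of 12 of the 16 gi-2 libraries. In aba1-6 the drought value was -0.22 (SE 0.08, adjusted p = 0.0937, and 0.0217 with the replicate block), and it too was smaller than the fall in wild type, by 0.63 (SE 0.12, adjusted p = 0.00206). In drought SUC1 was thus higher than in wild type in both mutants, by 0.42 in gi-2 (SE 0.09, adjusted p = 0.000317) and by 0.83 in aba1-6 (SE 0.09, adjusted p = 1.08e-09). Both aba1-6 drought libraries lay above both wild-type ones at 4 of 4 times, for example 121 and 120 CPM against 68.8 and 54.1 CPM at ZT1, and the difference passed at ZT1 (0.97, adjusted p = 6.39e-05), ZT8 (0.76, adjusted p = 0.00343) and ZT12 (1.02, adjusted p = 0.000212). The ZT8 call was lost without aba1-6 drought replicate 1 or wild type drought replicate 2. With normal watering gi-2 had less SUC1 than wild type at ZT1 (57.7 and 56.6 CPM against 83.9 and 95 CPM, log2 ratio -0.65, adjusted p = 0.0281), a call lost without any of the 4 libraries. The coding sequence of SUC1 is 84.3% identical to that of SUC5, 1916 bases away on the chromosome, and their transcripts share a run of 41 bases, and it is 76.8% identical to that of SUC2, so a share of its reads could belong to a relative.

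SUC2, the companion cell symporter that loads sucrose into leaf phloem, passed no averaged test. Its lowest, median and highest levels in wild type were 99.3, 121 and 181 CPM with normal watering and 92.0, 141 and 223 CPM in drought. In gi-2 they were 100.01, 156 and 172 CPM with normal watering and 116, 180 and 218 CPM in drought. In aba1-6 they were 96.2, 109 and 132 CPM with normal watering and 99.98, 117 and 155 CPM in drought, the lowest medians of the 3 genotypes. In gi-2 both drought libraries exceeded both normal ones at 3 of 4 times, and the drought value was 0.20 (SE 0.15, adjusted p = 0.545). The wild-type drought value depended on the replicate number: 0.21 (SE 0.15, adjusted p = 0.34) over all libraries, -0.14 without the wild-type libraries numbered 1 and 0.42 without those numbered 2. In drought aba1-6 against wild type gave -0.31 (SE 0.15, adjusted p = 0.142), and -0.26 with the replicate block (adjusted p = 0.0204). It gave 0.19 without the wild-type libraries numbered 1 and -0.66 without those numbered 2. With normal watering aba1-6 gave -0.21 (SE 0.15, adjusted p = 0.383), and -0.07 and -0.37 with the numbers 1 or 2 left out. For gi-2 against wild type the drought value of 0.16 (SE 0.15, adjusted p = 0.458) was 0.66 without the wild-type libraries numbered 1 and -0.20 without those numbered 2. With normal watering gi-2 gave 0.17 (SE 0.15, adjusted p = 0.533), 0.33 without the wild-type libraries numbered 1 and 0.02 without those numbered 2. The sign of the SUC2 difference in drought thus changed, for either mutant, with the wild-type number left out. SUC2 also passed no test of time of day in any of the 6 genotype and watering combinations.

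SWEET11 and SWEET12 form the pair of exporters that precede SUC2, and their coding sequences are 82.6% identical and their transcripts share a run of 29 bases, so reads could be split between them. SWEET11 in drought-grown wild type was 144 and 72.3 CPM at ZT1, 136 and 66.7 CPM at ZT8, 108 and 58.9 CPM at ZT12, and 88.7 and 53.1 CPM at ZT16. With normal watering it was 153 and 106 CPM, 172 and 97.9 CPM, 116 and 78.8 CPM, and 155 and 81.8 CPM. Within each replicate number drought was the lower at 4 of 4 times, yet the groups overlapped at all of them. The averaged value was -0.38 (SE 0.17, adjusted p = 0.124), and with the replicate block it was -0.44 (adjusted p = 5.32e-08). Without the wild-type libraries numbered 1 it was -0.53 and without those numbered 2 -0.33. Also without a filter on low counts it passed at -0.39 (adjusted p = 2.08e-06).

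In gi-2 SWEET11 was 154 to 164 CPM at ZT1 with normal watering and 198 to 222 CPM in drought, and over the 4 times the drought value was 0.15 (SE 0.17, adjusted p = 0.724). In drought SWEET11 was higher in gi-2 than in wild type by 0.70 (SE 0.17, adjusted p = 0.00307), without overlap at 3 of 4 times. That difference was 1.24 without the wild-type libraries numbered 1 and 0.33 without those numbered 2, so its size rested on the wild-type number used. Its SE and p over all libraries do not allow for an offset shared over the times. For the difference in drought effect between gi-2 and wild type the value was 0.53 (SE 0.24, adjusted p = 0.208), and 0.60 with the replicate block (adjusted p = 7.81e-07). With normal watering SWEET11 in gi-2 against wild type was 0.17 (SE 0.17, adjusted p = 0.608), and 0.19 with the replicate block (adjusted p = 0.0191). It was 0.55 without the wild-type libraries numbered 1 and -0.16 without those numbered 2. In aba1-6 both drought libraries lay below both normal ones at 3 of 4 times, with an averaged value of -0.27 (SE 0.17, adjusted p = 0.387, and 0.000411 with the replicate block). Against wild type in drought aba1-6 was higher by 0.53 (SE 0.17, adjusted p = 0.0256). Without the wild-type libraries numbered 1 this was 1.07, and without those numbered 2 it was 0.16. The call was lost in 8 of 26 alternatives, among them without aba1-6 drought ZT12 replicate 2 and without any 1 of the 4 wild type drought libraries numbered 2 (adjusted p between 0.0627 and 0.0853). With normal watering aba1-6 against wild type was 0.43 (SE 0.17, adjusted p = 0.094), and 0.44 with the replicate block (adjusted p = 4.57e-08). It was 0.80 without the wild-type libraries numbered 1 and 0.10 without those numbered 2.

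SWEET12 had the steepest daily course of the members other than SWEET15. In normally watered wild type it was 4.06 and 3.16 CPM at ZT1 and 87.2 and 52.2 CPM at ZT8, and its highest mean, 86.2 CPM at ZT16, was 23.9 times the lowest. In drought-grown wild type the ZT1 libraries had 5.53 and 3.19 CPM, in gi-2 14.7 and 15.4 CPM, and in aba1-6 4.72 and 4.45 CPM. The gi-2 libraries thus lay above the other 4 at ZT1, and the log2 ratio of gi-2 to wild type there was 1.80 (SE 0.49, adjusted p = 0.0269). This call was lost without gi-2 drought ZT1 replicate 1 or 2 or wild type drought ZT1 replicate 2. With normal watering at ZT1 gi-2 had 9.94 and 11.5 CPM and aba1-6 10.3 and 5.98 CPM, and neither passed against wild type. No averaged test passed for SWEET12. The drought value was 0.03 (SE 0.21, adjusted p = 0.954) in wild type, 0.24 (SE 0.18, adjusted p = 0.55, and 0.0207 with the replicate block) in gi-2 and -0.28 (SE 0.19, adjusted p = 0.439, and 0.00663 with the block) in aba1-6. In drought gi-2 against wild type was 0.36 (SE 0.19, adjusted p = 0.163), and 0.44 with the block (adjusted p = 6.86e-06). It was 0.86 without the wild-type libraries numbered 1 and 0.01 without those numbered 2, so its size rested on the wild-type number used. With normal watering gi-2 gave 0.15 (SE 0.20, adjusted p = 0.706), and 0.54 and -0.21 with the numbers 1 or 2 left out. In the same regime aba1-6 gave 0.25 (SE 0.20, adjusted p = 0.451), 0.24 with the block (adjusted p = 0.0223), and 0.63 and -0.11 with the numbers 1 or 2 left out. For aba1-6 against wild type in drought the value changed sign with the number left out: -0.06 (SE 0.20, adjusted p = 0.888) over all libraries, 0.44 without the wild-type libraries numbered 1 and -0.41 without those numbered 2.

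SWEET4 encodes a plasma membrane hexose transporter. In wild type it was 3.41 and 4.53 CPM at ZT1, 6.89 and 6.86 CPM at ZT8, 9.90 and 5.65 CPM at ZT12, and 7.41 and 6.69 CPM at ZT16 with normal watering. In drought it was 4.98 and 9.05 CPM, 24 and 15.4 CPM, 26.4 and 20.2 CPM, and 18.7 and 19.2 CPM. Both drought libraries lay above both normal ones at 4 of 4 times, and SWEET4 rose by 1.38 on the log2 scale (SE 0.17, adjusted p = 6.82e-08), from 6.42 ± 1.96 to 17.2 ± 7.22 CPM (mean ± SD, n = 8). The rise passed at ZT8 (1.52, adjusted p = 0.00225), ZT12 (1.80, adjusted p = 0.000703) and ZT16 (1.42, adjusted p = 0.0124), and each of these was lost without 1 or 2 named libraries (drought replicate 1 at ZT8, normal replicate 2 at ZT12, either normal replicate at ZT16).

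In the mutants SWEET4 differed less between the regimes. Its level went from 6.88 ± 1.73 to 8.99 ± 3.54 CPM in gi-2 (log2 ratio 0.33, SE 0.17, adjusted p = 0.326) and from 4.36 ± 1.41 to 6.17 ± 3.68 CPM in aba1-6 (0.30, SE 0.19, adjusted p = 0.4). The drought effect was smaller than in wild type by 1.05 in gi-2 (log2 difference -1.05, SE 0.25, adjusted p = 0.00475) and by a like amount in aba1-6 (-1.08, SE 0.26, adjusted p = 0.0127). The aba1-6 difference was lost without aba1-6 normal ZT1 replicate 1 (-0.81, adjusted p = 0.143). In drought SWEET4 was lower than in wild type in gi-2 (-0.89, SE 0.17, adjusted p = 6.15e-05) and in aba1-6 (-1.62, SE 0.17, adjusted p = 8.59e-10). The aba1-6 drought libraries lay below both wild-type ones at 4 of 4 times, with 1.87 and 1.16 CPM at ZT1 (log2 ratio -2.18, adjusted p = 0.000153) and 7.57 and 4.62 CPM at ZT12 (-1.89, adjusted p = 0.000121). With normal watering aba1-6 also passed as lower than wild type (-0.53, SE 0.19, adjusted p = 0.0493), but in 17 of 26 alternatives it did not. SWEET4 passed the test of time of day in drought in all 3 genotypes and with normal watering in none, with its lowest mean at ZT1 throughout; the gi-2 call was lost without gi-2 drought ZT1 replicate 2, and the wild-type one without the wild-type libraries numbered 1.

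SWEET15, also named SAG29 and known as a gene induced in senescing leaves and in seed coats, was near the detection limit. It had no count in 15 of the 48 libraries. Its total over 8 libraries was 40 counts in normally watered wild type, 165 in drought-grown wild type, 75 and 24 in gi-2, and 3 and 24 in aba1-6. Since even counts were in excess across the table, the mates of a read pair may each have been counted, and these totals may stand for fewer molecules than counts. In drought-grown wild type the ZT1 libraries stood out with 3.43 and 10.5 CPM, and the others ranged from 0 to 2.11 CPM. The wild-type drought value of 1.53 (SE 0.72) did not pass (adjusted p = 0.124). In drought SWEET15 was lower in gi-2 than in wild type (-2.01, SE 0.73, adjusted p = 0.0345), a call lost in 14 of 25 alternatives. Against wild type aba1-6 passed as lower with normal watering (adjusted p = 0.0318) and in drought (adjusted p = 0.00251), but groups with both libraries at 0 enter these averages, so no fold change is given. The drought call was lost without wild type drought ZT8 replicate 2 or ZT12 replicate 1, and without the wild-type libraries of either number. The normal-watering call was lost in 8 alternatives: without either wild-type number, without aba1-6 normal replicate 2 at ZT1, ZT8 or ZT12 (adjusted p = 0.0504 to 0.0798), and without wild type normal ZT8 replicate 1, ZT12 replicate 2 or ZT16 replicate 1.

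SWEET2, a vacuolar SWEET known to limit sugar loss from roots, peaked at ZT1 and had its lowest mean at ZT8 in all 6 combinations of genotype and watering. In wild type it was 61.0 and 60.2 CPM at ZT1 with normal watering and 41.7 and 41.1 CPM in drought, and 9.78 and 9.0 CPM at ZT8 against 3.13 and 5.69 CPM. Drought libraries lay below normal ones at 4 of 4 times, and SWEET2 fell by 0.84 on the log2 scale (SE 0.14, adjusted p = 1.65e-05). Without the wild-type libraries numbered 1 the fall was 0.50 on that scale (log2 ratio -0.50) and without those numbered 2 it was -1.28 as a log2 ratio. In gi-2 the drought value was 0.02 (SE 0.12, adjusted p = 0.973), with 13.5 and 16.5 CPM at ZT8 under normal watering and 13.1 and 14.1 CPM in drought. The gi-2 effect was higher than that of wild type by 0.86 (SE 0.18, adjusted p = 0.00246), a difference that did not pass without the wild-type libraries numbered 1. In aba1-6 SWEET2 fell by 0.37 on the log2 scale (SE 0.12, adjusted p = 0.0448), a call lost without any 1 of 12 of the 16 libraries, with the replicate block (adjusted p = 0.0568), with library totals (0.0709) and with only the compared libraries (0.0703). The difference of the aba1-6 effect from wild type was 0.47 (SE 0.18, adjusted p = 0.176).

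In drought SWEET2 was higher than in wild type in gi-2 by 0.89 (SE 0.13, adjusted p = 3.32e-06), without overlap at 4 of 4 times. At ZT8 the gi-2 libraries had 13.1 and 14.1 CPM against 3.13 and 5.69 CPM, a log2 ratio of 1.64 (SE 0.30, adjusted p = 0.000331) that passed without any single library. At ZT12 the ratio was 1.20 (adjusted p = 0.00369), lost without wild type drought ZT12 replicate 1. In aba1-6 SWEET2 was higher by 0.66 (SE 0.13, adjusted p = 0.000262), without overlap at 3 of 4 times, and by 0.36 without the wild-type libraries numbered 1 (adjusted p = 0.0710).

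SWEET16 and SWEET17 are the vacuolar fructose carriers, with coding sequences 75.5% identical. SWEET16 in wild type was 19.0 and 15.6 CPM at ZT1, 10.7 and 13.4 CPM at ZT8, 10.4 and 4.81 CPM at ZT12, and 7.14 and 3.58 CPM at ZT16 with normal watering. In drought it was 8.97 and 8.54 CPM, 5.74 and 6.11 CPM, 1.06 and 2.71 CPM, and 7.25 and 5.39 CPM. Drought was lower without overlap at ZT1, ZT8 and ZT12, and SWEET16 fell by 0.83 on the log2 scale (SE 0.16, adjusted p = 0.000126), with log2 ratios of -0.56 and -1.31 when the wild-type libraries numbered 1 or 2 were left out. In gi-2 the drought value was -0.19 (SE 0.14, adjusted p = 0.532) and in aba1-6 -0.27 (SE 0.14, adjusted p = 0.276). The difference between gi-2 and wild type in drought effect was 0.64 (SE 0.21, adjusted p = 0.0572, and 0.0255 with the replicate block). In drought gi-2 exceeded wild type by 0.85 (SE 0.16, adjusted p = 5.12e-05). At ZT12 it had 6.48 and 8.76 CPM against 1.06 and 2.71 CPM (log2 ratio 1.95, SE 0.37, adjusted p = 0.000205), a call that held without any single library, and at ZT8 10.1 and 15.4 CPM against 5.74 and 6.11 CPM (1.07, adjusted p = 0.0128), a call that did not hold without gi-2 replicate 2 or without either wild-type library of that group. For aba1-6 the drought value against wild type was 0.29 (SE 0.16, adjusted p = 0.192).

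SWEET17 passed no averaged drought test, with values of 0.16 (SE 0.07, adjusted p = 0.109) in wild type, -0.04 (SE 0.07, adjusted p = 0.825) in gi-2 and -0.03 (SE 0.07, adjusted p = 0.877) in aba1-6. Its daily course had another shape in gi-2. In normally watered wild type it went from 73.7 and 59.9 CPM at ZT1 to 25.0 and 28.0 CPM at ZT12, and in aba1-6 from 66.1 and 48.3 CPM to 25.7 and 31.0 CPM. In gi-2 the same times had 49.0 and 58.8 CPM and 45.5 and 48.5 CPM. In drought wild type went from 75.2 and 88.6 CPM at ZT1 to 30.2 and 24.9 CPM at ZT12, whereas gi-2 had 49.2 and 50.9 CPM and 41.9 and 44.3 CPM. The gi-2 libraries thus lay above wild type at ZT12 and below it at ZT1 in both regimes. At ZT1 with normal watering the margin was narrow (58.8 against 59.9 CPM). The gi-2 to wild type ratio differed between the times with normal watering (adjusted p = 0.00112, 1 of 9 members, 3.75% of all genes) and in drought (adjusted p = 6.60e-06, 2 of 9 members, 4.65%).

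At single times SWEET17 in gi-2 was higher than in wild type at ZT12 by 0.79 with normal watering (SE 0.15, adjusted p = 0.00042) and by 0.66 in drought (SE 0.15, adjusted p = 0.00162), and lower in drought at ZT1 by -0.71 as a log2 ratio (SE 0.13, adjusted p = 0.000321). The first and the last of these held without any single library, and the ZT12 drought call was lost without wild type drought ZT12 replicate 2. Averaged over the times, gi-2 was higher than wild type with normal watering by 0.34 (SE 0.07, adjusted p = 0.000502), and in drought the value was 0.14 (SE 0.07, adjusted p = 0.132). In aba1-6 SWEET17 was lower than in wild type in drought by a small margin (-0.20, SE 0.07, adjusted p = 0.0277), a call lost in 12 of 26 alternatives. SWEET16 was the other member whose gi-2 to wild type ratio differed between the times in drought (adjusted p = 0.0277), a call lost in 8 of 25 alternatives.

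**Figure D4:**
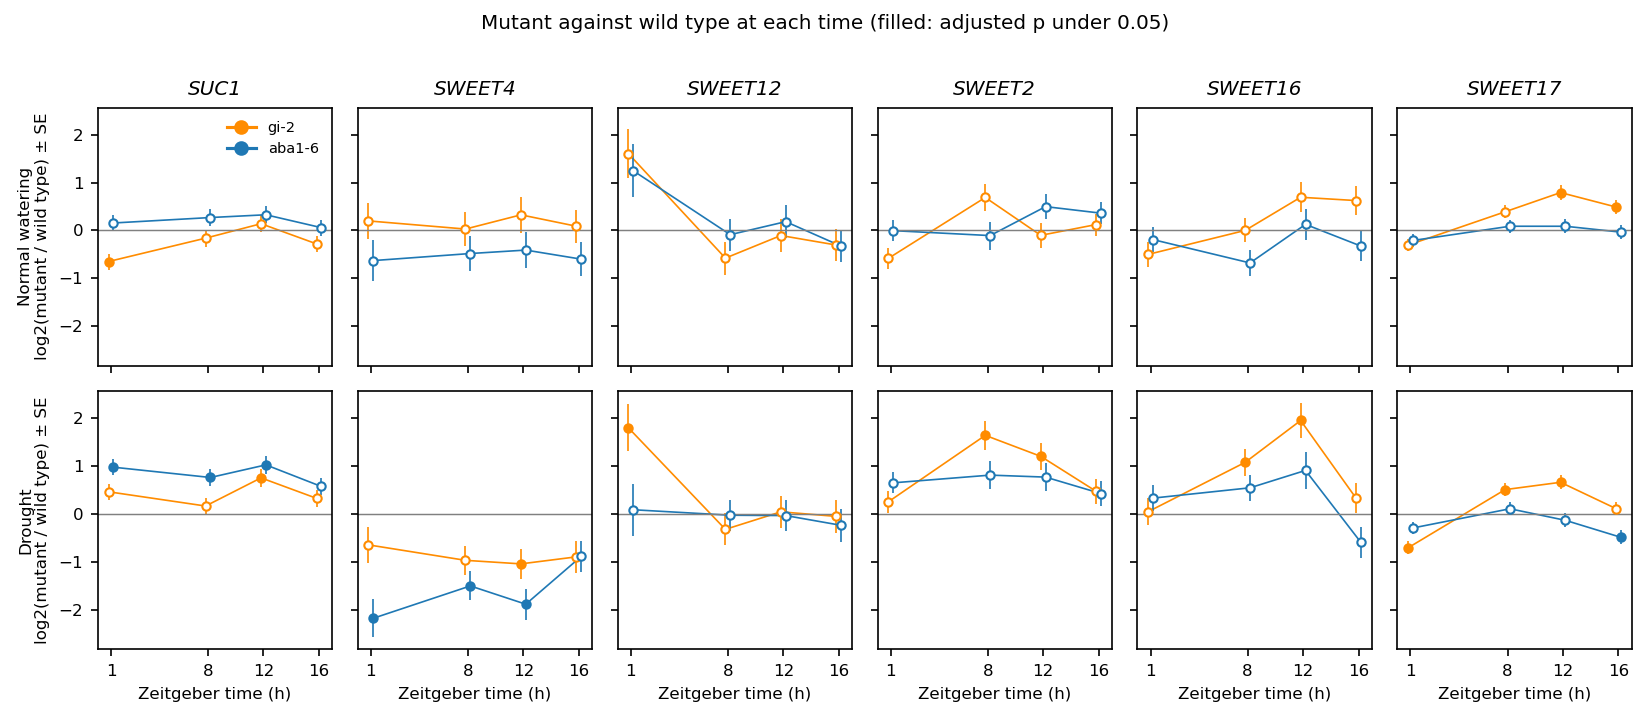
Log2 ratio of mutant to wild type at each Zeitgeber time in hours for 6 genes, with standard errors, under normal watering (top) and drought (bottom). Filled points passed an adjusted p under 0.05. In gi-2 SWEET17 crosses from below 0 at ZT1 to above 0 at ZT12 in both regimes, and SWEET4 lies below 0 in both mutants at all 4 times in drought.

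Time of day was tested for any difference among the 4 times in each of the 6 combinations of genotype and watering. SUC1, SWEET2 and SWEET12 passed in 6 of 6, and SWEET11 and SUC2 in 0 of 6. SWEET16 and SWEET17 passed in the 4 combinations of wild type and aba1-6 and in neither of gi-2, where the adjusted p was 0.137 to 0.286. Members passing numbered 5 in wild type with normal watering and 7 in drought, against 38.2% and 40.1% of all genes. In gi-2 they numbered 3 and 4, against 26.2% and 28.7%, and in aba1-6 5 and 6, against 36.2% and 38.7%. Phases differed between members: SWEET2 was highest at ZT1 and lowest at ZT8, SUC1 was lowest at ZT8 in 5 combinations and at ZT12 in drought-grown wild type, and SWEET12 was lowest at ZT1 in all 6. The fold from lowest to highest mean of SWEET2 was 6.45 in wild type and 7.03 in aba1-6 with normal watering, against 2.68 in gi-2. In SWEET17 it was 2.52 and 2.02 against 1.24, and in SWEET16 3.23 and 3.39 against 1.46. The test of a gi-2 to wild type ratio differing between the times passed with normal watering for SWEET17, but not for SWEET2 or SWEET16. The SWEET15 call in drought-grown wild type was lost without wild type drought ZT1 replicate 2.

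Among other genes of sucrose handling, drought moved members in both directions. Of 7 tested genes of sucrose synthesis, 3 were higher and 1 lower in wild type, 2 and 0 in gi-2, and 3 and 0 in aba1-6, with median log2 ratios of 0.29, 0.21 and 0.14 against 0.01, -0.00 and 0.00 over all genes. Of all genes 10.2% were higher and 12.7% lower in wild type, 1.64% and 3.53% in gi-2, and 4.01% and 5.31% in aba1-6. The counts of each list below for drought against normal watering stand beside these shares. SPS2F, a sucrose phosphate synthase, rose in wild type from 10.9 ± 2.56 to 17.2 ± 4.77 CPM (log2 ratio 0.68, SE 0.13), and SPP3B, a sucrose phosphatase, from 69.0 ± 40.9 to 95.9 ± 53.6 CPM (0.50, SE 0.07). Of 12 tested genes of sucrose cleavage, 2 were higher and 3 lower in wild type, 0 and 2 in gi-2, and 1 and 2 in aba1-6, with medians of 0.04, -0.08 and -0.08. CWINV1, a cell wall invertase, fell in wild type from 30.2 ± 13.1 to 8.12 ± 4.56 CPM (log2 ratio -1.98, SE 0.22) and less in aba1-6, from 36.6 ± 10.5 to 23.0 ± 9.07 CPM (-0.72, SE 0.18). The difference between those CWINV1 effects passed (1.27, SE 0.29, adjusted p = 0.015). CWINV5 was 0.0588 ± 0.110 CPM in wild type with normal watering and 1.33 ± 0.785 CPM in drought, against 0.0781 ± 0.113 CPM in drought-grown gi-2. It passed as higher in wild-type drought, but groups at 0 enter it, so no fold change is given.

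Of 13 tested tonoplast and hexose transporters, 1 was higher and 3 lower in wild-type drought, 1 and 2 in gi-2, and 1 and 5 in aba1-6, with median log2 ratios of -0.12, -0.14 and -0.10. ERD6, a vacuolar hexose exporter family member, fell in wild type from 52.0 ± 14.0 to 22.7 ± 5.18 CPM (log2 ratio -1.16, SE 0.16), and TMT2, a tonoplast sugar importer, rose from 90.8 ± 15.7 to 140 ± 21.7 CPM (0.63, SE 0.06). In drought 5 of the 13 were higher and 2 lower in gi-2 than in wild type, against 15.3% and 13.3% of all genes. STP3, a monosaccharide symporter, was at 10.1 ± 5.36 in gi-2 against 25.1 ± 10.7 CPM in wild type (-1.37, SE 0.12). For aba1-6 against wild type in drought these counts were 3 and 1, against 11.4% and 11.3% of all genes. Of 10 further SWEET genes only 3 had counts enough to be tested, and SWEET13, a sucrose exporter close to SWEET11 and SWEET12, rose in drought in wild type (11.4 ± 9.63 to 19.2 ± 20.6 CPM, log2 ratio 0.80, SE 0.24) and in aba1-6 (2.61 ± 2.08 to 7.75 ± 6.70 CPM, 1.52, SE 0.28). SWEET13 was lower in aba1-6 than in wild type in both regimes (log2 ratios -2.01 and -1.29), and like SWEET11 it was higher in the wild-type library numbered 1 in 8 of 8 groups. SWEET1, a plasma membrane glucose carrier, was higher than in wild type in aba1-6 in both regimes (0.87 and 0.90) and lower in gi-2 in both (-0.72 and -0.62). Of 7 further sucrose transporters 4 were tested and none passed for drought in any genotype, with SUC3 at 27.4 ± 3.81 and 28.9 ± 2.75 CPM in wild type. Of 8 tested senescence genes none was higher in drought, and 3, 4 and 4 were lower in wild type, gi-2 and aba1-6 (median log2 ratios -0.31, -0.58 and -0.36), beside 12.7%, 3.53% and 5.31% of all genes. SAG13 was at 29.0 ± 33.7 CPM in normally watered wild type and 0.682 ± 0.694 CPM in drought, while SWEET15, also a senescence-associated gene by name, did not pass. Of the 8 phloem markers 0 passed for drought in any genotype. In drought 3 were higher and 1 lower in gi-2 than in wild type, against 15.3% and 13.3% of all genes, and SWEET11 was higher there too. The sum of these markers differed between the wild-type numbers (ratio 1.11 to 1.93 within groups), and their counts with a number left out are not given.

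Over the 24 group means of log2(CPM + 1), the genes most like each member were named with Pearson's r as a description, since all share the same libraries. SWEET12 was followed most closely, by AT1G48210 (r = 0.98), LACS6 (0.98) and AT3G63160 (0.98). SWEET2 was followed by AT5G67385 (0.96), AT3G21690 (0.96) and BMY3 (0.95), a beta-amylase gene, and SWEET4 by AT1G67300 (0.93), the annexin gene ANNAT1 (0.93) and AT2G39050 (0.92). SUC1 was most like CRK40 (0.94), SWEET16 like TBL25 (0.92), SWEET17 like DFL2 (0.91), SWEET11 like AT5G18230 (0.88) and SUC2 like AT1G21670 (0.87). Among the members themselves, SWEET16 and SWEET17 ran together (r = 0.77), as did SWEET2 and SUC1 (0.75), and SWEET4 ran opposite to SUC1 (-0.80) and to SWEET11 (-0.76).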

How the data were processed

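RNA-seq libraries were made with a TruSeq kit from Trizol-extracted RNA, per the labels' protocols. The authors deposited 1 table of expected counts per gene for the 48 libraries, and the submitters' processing notes name Bowtie2, RSEM, edgeR and TAIR10, with versions, roles, strand setting and read length not given in the sources used here. Of the deposited expected counts 98.6% were whole numbers (within 1e-09), and all were rounded. Of the whole counts from 1 to 50, 61.2% to 70.1% per library were even, so the mates of a pair may each have been counted. Of the 26988 rows, 3329 were 0 throughout, 25997 matched 1 locus of the RefSeq annotation of build TAIR10.1, and 84 of the 90 list genes were found; SPP1, SUS1, SUS2, TMT1, SEN1 and SULTR2;1 were not. All 48 columns were used and 0 were left aside.

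Libraries were grouped by title into 24 groups of 2. edgeR 4.0.16 (R 4.3.3) fitted 24 group means by robust quasi-likelihood to the 19037 genes kept by filterByExpr, all 9 members among them, with TMM factors of 0.862 to 1.135, a common biological coefficient of variation of 12.1% and 24 residual degrees of freedom. Contrasts averaged over the 4 times, contrasts at single times and tests with 3 degrees of freedom among the times were adjusted by Benjamini-Hochberg over all genes tested. With libraries of 1920012 to 26925706 counts, low genes such as SWEET15 rest on few counts, and precision is limited by counting as well as by 2 replicates a group. A mean ± SD over 8 libraries spans the 4 times and so includes the daily course. Levels per kb divide CPM by the longest annotated transcript.

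The shared replicate numbers were checked by correlating the deviations of same-numbered libraries from their group means. In wild type 28 of 28 pairs of groups exceeded 0.1 (0.102 to 0.392, median 0.215). In gi-2 and aba1-6 3 of 28 each did (medians 0.027 and 0.030, highest 0.198 and 0.259). The numbers thus pair the libraries in wild type, and in the mutants any pairing was weaker. The replicate block was fitted within each genotype, so for a mutant against wild type its p leaves out the offset between the wild-type numbers. It takes that offset as equal in both regimes and at all times. The main fit has no block and treats same-numbered libraries of different times as independent. Its averaged SE and p against wild type thus do not allow for an offset shared over the times. Alternatives were DESeq2 1.42.0, its size factors, library totals, no filter, a filter at 5 CPM in 2 libraries, only the compared libraries, the replicate block and each of the 48 libraries left out. Leaving out the wild-type libraries numbered 1 or 2, or the 2 shallowest libraries, was added after seeing the data. Without 1 number each wild-type group holds 1 library, so the p leaves out the spread between the numbers. The test was also run on simulated counts drawn without an offset shared by same-numbered libraries, so that run does not address such an offset.

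The members and the gene lists were chosen with earlier results of these data known. All members are named. Of each list the counts are given, and by name mainly the 2 called genes with the largest averaged change; SUC3 and the phloem markers were named after their values were seen. Promoters are 250 bases before the RefSeq start. Likeness used log2(CPM + 1) with a minimum mean of 5 CPM. Python 3.11.15, pandas 2.3.3, Biopython 1.88 and matplotlib 3.10.9 were used.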

Additional observations from a re-analysis of the deposited data

Results flagged for a closer look

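The drought effect differed between genotypes for 3 genes by the test of the difference itself. Relative to wild type it was higher in gi-2 for SWEET2 (0.86 on the log2 scale) and SUC1 (0.66) and lower for SWEET4 (-1.05). Relative to wild type it was higher in aba1-6 for SUC1 (0.63) and lower for SWEET4 (-1.08). Both sets use the same wild-type libraries. The SUC1 drought effect in gi-2 also differed between the times (adjusted p = 0.0399). The ratio of gi-2 to wild type differed between the times for SWEET17 with normal watering (adjusted p = 0.00112) and in drought (adjusted p = 6.60e-06), and for SWEET16 in drought (adjusted p = 0.0277). All are from edgeR's quasi-likelihood test over all libraries. Several were lost in some alternatives, as given above: SWEET2 in gi-2, SWEET4 in both mutants, SUC1 between the times, and SWEET16 in drought.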

How the results depend on the processing

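Of the 25 averaged gene results that passed, 11 lost the call in some alternative (83 of 725 alternatives) and 0 changed direction past the threshold. Of the 56 that did not pass, 29 passed in some alternative. Among tests at single times and of daily courses 68 passed, and 122 of their 1011 alternatives lost the call. With the wild-type libraries numbered 1 left out, SWEET12 in aba1-6 against wild type in drought turned from -0.06 to 0.44 averaged over the times, and from -0.03 to 0.59 at ZT8.

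Genes passing for drought in wild type numbered 4371, and 2456 with only the compared libraries. In gi-2 they numbered 984, 1615 with the replicate block and 1964 with only the compared libraries. For aba1-6 against wild type in drought 4310 passed, and 7117 without the wild-type libraries numbered 1. For the gi-2 difference of drought effect 1325 passed, 2678 with the replicate block and 2912 without the wild-type libraries numbered 1. For the aba1-6 difference 522 passed, 998 without a filter, 1510 with the replicate block, 1805 without the wild-type libraries numbered 1 and 305 with only the compared libraries.

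Members passing in gi-2 drought were 0, and 1 without a filter, 1 with the replicate block and 4 with only the compared libraries. In aba1-6 drought they were 1, and 0 with library totals, 4 without a filter, 3 with the replicate block and 2 with only the compared libraries. For gi-2 against wild type with normal watering they were 1, and 2 with library totals, 2 without a filter, 3 with the replicate block, 5 without the wild-type libraries numbered 1 and 2 without those numbered 2. For aba1-6 with normal watering they were 2, and 6 without a filter, 1 with the 5 CPM filter, 5 with the replicate block and 1 with only the compared libraries. For the gi-2 difference they were 3, and 6 without a filter and 5 with the replicate block. The causes were not tested.

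Leaving out single libraries gave 3395 to 5161 genes and 4 to 5 members for wild-type drought, 642 to 904 and 0 to 0 in gi-2, and 1326 to 1683 and 0 to 2 in aba1-6. For gi-2 against wild type it gave 1917 to 2290 genes and 1 to 2 members with normal watering and 4363 to 6157 and 5 to 7 in drought. For aba1-6 it gave 2529 to 3102 and 0 to 2, and 3420 to 5095 and 4 to 6. The differences gave 967 to 2006 genes and 3 to 4 members in gi-2 and 309 to 833 and 1 to 3 in aba1-6. Library totals moved the share of higher calls from 44.6% to 54.9% for wild-type drought, from 53.5% to 38.4% for gi-2 and from 50.1% to 63.4% for aba1-6 against wild type in drought, from 45.0% to 66.9% for aba1-6 with normal watering, and from 55.6% to 41.2% for the gi-2 difference.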
